A study of Rattus norvegicus with 96 samples.

Results

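The genes Aldoc, Gfap, Aqp4, Slc1a2, Slc1a3, Glul, S100b, Mlc1, Aldh1l1 and Fgfr3, which astrocytes express strongly, were followed across both brain regions, both treatments and all 3 times. They were taken as every probe set that the platform annotation maps to these symbols, which gave 18 probe sets of 10 genes, out of 31042 probe sets and 14217 named genes on the array. Each gene is led by its tested probe set with the highest mean over the 96 arrays. Aqp4, Slc1a3 and Glul had 3 probe sets each, Slc1a2 and Fgfr3 had 2, and the other 5 genes had 1.

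The rats were of the alcohol-preferring P line, and all were P rats, so no unselected strain was measured. Ethanol rats had limited access to ethanol, and their tissue was taken 1, 6 or 24 hours after the last drinking episode. In the central nucleus of the amygdala (CeA) there were 11, 10 and 10 ethanol arrays at 1, 6 and 24 h, against 6, 5 and 6 water arrays. In the nucleus accumbens shell (NAc shell) there were 10, 10 and 11 ethanol arrays at 1, 6 and 24 h, against 7, 5 and 5 water arrays. The labels give no age, no amount drunk and no link between the 2 regions of a rat, and they do not say whether arrays of a group came from separate rats, so the p-values measure the spread between arrays.

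Astrocytes take up glutamate that neurons release, turn it into glutamine, buffer water and ions at blood vessels and fuel neurons by glycolysis. Slc1a2 and Slc1a3 encode the main glial glutamate transporters, and Glul encodes glutamine synthetase, which handles the glutamate they bring in. Aqp4 encodes the water channel of the endfeet that wrap vessels, and Mlc1 a membrane protein of the same contacts. Gfap encodes the astrocyte's intermediate filament and is a common sign of astrocyte reactivity, S100b encodes a calcium-binding protein, Aldoc the brain form of the glycolytic enzyme aldolase, Aldh1l1 a folate enzyme used as a pan-astrocyte marker, and Fgfr3 a fibroblast growth factor receptor of astrocytes and their precursors. In tissue arrays, fewer astrocytes and less RNA per astrocyte cannot be told apart.

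The RefSeq promoter table (build GRCr8) held all 10 genes, with 15 windows that run from 250 bases before to 50 bases after an annotated start. The windows printed here belong to the gene with the widest region difference (Gfap), to both starts of the gene with the 2 smallest ethanol p-values in the CeA (Aqp4), and to the pair of genes that varied together most closely in the NAc shell (Slc1a3 and S100b). Capitals mark the CCAAT box, searched as CCAAT on both strands. The Gfap window lies at chr10:88361612-88361911 on the minus strand, the first Aqp4 window at chr18:6798793-6799092 and the second at chr18:6797877-6798176, both on the minus strand, the first Slc1a3 window at chr2:59557759-59558058 on the minus strand, and the S100b window at chr20:12381032-12381331 on the minus strand.
Gfap: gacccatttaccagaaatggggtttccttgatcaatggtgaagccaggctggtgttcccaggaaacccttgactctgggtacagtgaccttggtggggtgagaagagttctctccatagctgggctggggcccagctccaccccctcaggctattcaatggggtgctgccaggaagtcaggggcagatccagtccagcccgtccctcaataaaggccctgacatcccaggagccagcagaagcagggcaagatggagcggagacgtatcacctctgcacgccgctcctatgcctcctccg
Aqp4, first start: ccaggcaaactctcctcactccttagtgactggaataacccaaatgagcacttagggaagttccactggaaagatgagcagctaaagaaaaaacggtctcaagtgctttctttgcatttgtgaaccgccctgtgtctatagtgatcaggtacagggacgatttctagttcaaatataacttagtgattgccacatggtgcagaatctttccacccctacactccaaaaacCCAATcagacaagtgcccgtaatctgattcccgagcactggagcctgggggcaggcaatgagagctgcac
Aqp4, second start: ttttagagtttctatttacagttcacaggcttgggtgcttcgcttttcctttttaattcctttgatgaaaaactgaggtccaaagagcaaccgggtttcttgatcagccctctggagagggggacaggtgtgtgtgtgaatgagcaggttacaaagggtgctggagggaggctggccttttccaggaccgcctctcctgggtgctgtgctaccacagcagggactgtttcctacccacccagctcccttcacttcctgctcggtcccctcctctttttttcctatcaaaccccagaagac
Slc1a3: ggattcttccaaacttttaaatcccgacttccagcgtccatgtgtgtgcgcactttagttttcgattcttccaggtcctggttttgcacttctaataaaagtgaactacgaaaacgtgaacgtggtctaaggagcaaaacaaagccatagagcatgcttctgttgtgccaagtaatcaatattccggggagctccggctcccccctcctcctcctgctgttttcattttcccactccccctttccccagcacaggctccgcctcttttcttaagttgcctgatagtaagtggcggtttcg
S100b: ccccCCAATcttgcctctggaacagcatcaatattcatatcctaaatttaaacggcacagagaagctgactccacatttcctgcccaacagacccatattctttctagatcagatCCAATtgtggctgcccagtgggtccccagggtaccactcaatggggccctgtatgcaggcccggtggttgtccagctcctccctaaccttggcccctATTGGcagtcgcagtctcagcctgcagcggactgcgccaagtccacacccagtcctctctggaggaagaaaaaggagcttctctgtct
CCAAT occurred in 7 of the 15 windows, which belong to 6 of the 10 genes, S100b holding 3 copies and Gfap and Slc1a3 none, while 37.5% of all 33469 windows of 300 bases in the table held it. The GC box (GGGCGG, both strands) occurred in 7 of the 15 windows, against 33.1% of all windows. The TATA box (TATAAA, both strands) and the STAT site (TTCNNNGAA, both strands), which 14.2% and 8.87% of all windows held, occurred in 0 of the 15 windows. The 3 windows of Slc1a3 overlap over most of their length, so the 15 windows are not 15 separate sequences. All these matches describe letters only. None of the searched motifs contains another.

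Values are log2 signals made by robust multi-array averaging, and a difference of 1 is a factor of 2. Group levels are given as mean ± SD and differences as estimate ± standard error (SE). A probe set passed when its adjusted p in limma (Benjamini-Hochberg over all tested probe sets) was under 0.05. Probe sets were tested where their mean lay above the 40th percentile of the region, 6.96 for the CeA and 7.09 for the NAc shell, which kept 16 of the 18 in each region. Fgfr3 1369373_at was below the limit in both regions, Slc1a2 1369694_at in the CeA and Aqp4 1368981_at in the NAc shell. The filter uses the mean of all arrays of a region, so a probe set high in one region only was kept there only.

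Array medians ran from 7.68 to 7.82 for the CeA and from 7.78 to 7.86 for the NAc shell. Lower quartiles did not overlap (5.75 to 5.88 for the CeA, 6.01 to 6.16 for the NAc shell). The labels do not say whether the arrays of the 2 regions were normalized together. The 3 prime minus 5 prime signal of the Gapdh control probe sets, which grows as the RNA or its amplified copy shortens, was 2.91 ± 0.53 in CeA arrays and 1.81 ± 0.25 in NAc shell arrays (SD, n = 48 each). In all, 3 CeA and 5 NAc shell arrays correlated poorly with the rest of their region, and all 5 of the NAc shell were ethanol arrays. Title numbers of the CeA arrays fall into 4 runs that an earlier analysis of these data found to differ in level. The labels do not call the runs a batch. Of 5 region markers looked at, CeA minus NAc shell over 48 arrays each was -2.51 for Adora2a and -1.97 for Drd2, genes of striatal neurons, and 0.80 for Prkcd, 2.65 for Crh and -0.47 for Nts, genes known from CeA neurons. Nts thus went against the other 2 CeA genes.

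**Figure D1:**
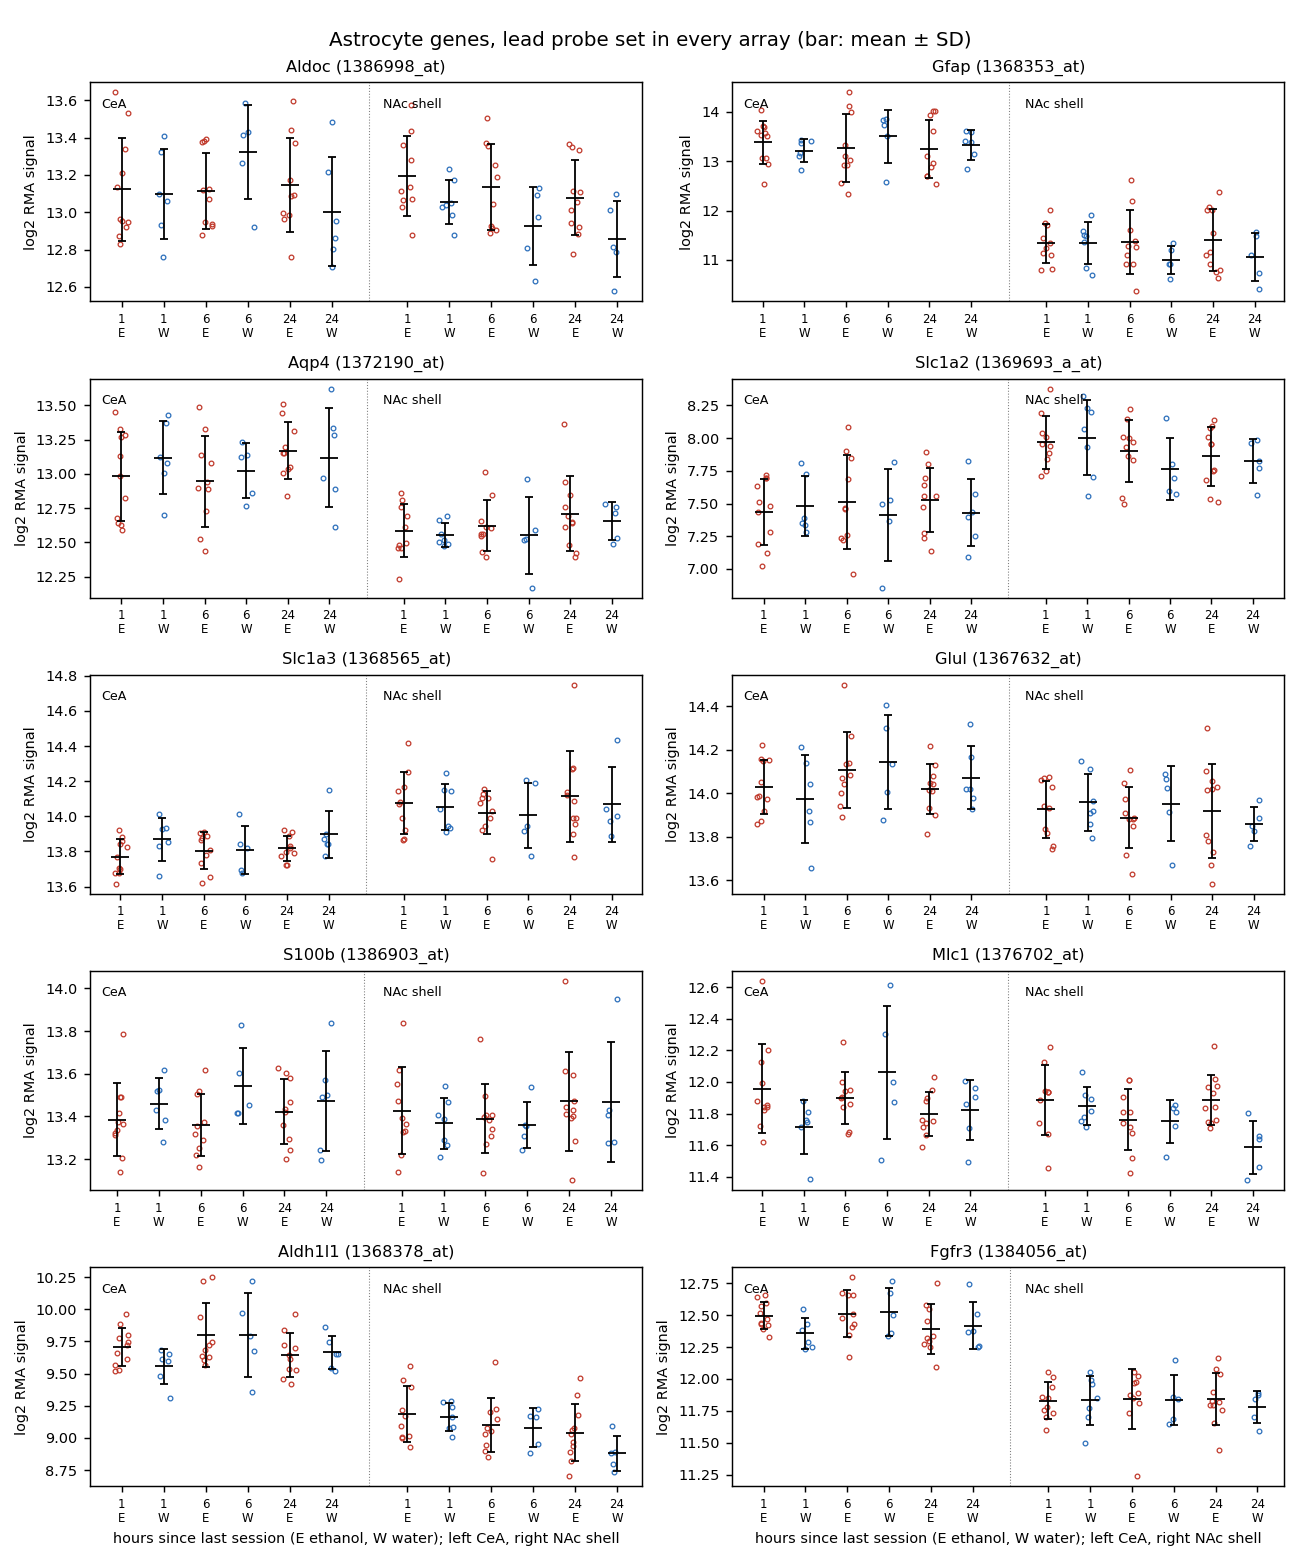
Each panel shows the log2 signal of 1 lead probe set in every array (circles), with mean and SD, for ethanol (E, red) and water (W, blue) rats at 1, 6 and 24 h, CeA on the left and NAc shell on the right. For Gfap, Aldh1l1 and Fgfr3 the water arrays of the CeA and NAc shell do not overlap, whereas their ethanol arrays do. Ethanol and water arrays overlap in every panel.

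Between regions, some of these genes were higher in the CeA and others lower. Gfap stood furthest apart among the leads, 2.21 ± 0.18 higher in the CeA of water rats than in their NAc shell, a 4.64-fold difference (95% interval 1.86 to 2.56 in log2). Aldh1l1, Fgfr3 and Aqp4 were also higher in the CeA, whereas the leads of both glutamate transporters, Slc1a2 and Slc1a3, were lower there. The Slc1a2 lead had a low signal. Of the 17 probe sets tested over both regions in water rats, 13 passed, 8 of them higher and 5 lower in the CeA. This is read against a background in which 76.2% of all 19678 tested probe sets passed, 36.6% higher and 39.6% lower, so the share of members that passed is close to that of all probe sets and is no result about the members. Of the 17, Aqp4 1368981_at and Slc1a2 1369694_at entered the comparison through the region where they are high. Among the 15 member probe sets tested in both regions 11 passed, against 74.0% of all 17572 such probe sets. Among the 10 leads, 6 were higher, 2 were lower and 2 did not pass, with a median difference of 0.17 against -0.01 over all tested probe sets.

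The filament gene Gfap (1368353_at) ran from 12.58 through a median of 13.41 to 13.84 in the 17 CeA water arrays. In the 17 NAc shell water arrays it ran from 10.42 through 11.20 to 11.91. The water arrays of the 2 regions did not overlap, and the difference had an adjusted p of 1.83e-20. In ethanol rats Gfap ran from 12.34 through 13.11 to 14.39 in the CeA and from 10.36 through 11.26 to 12.62 in the NAc shell (n = 31 each), a difference of 1.93 ± 0.13 with overlap at the edges. Of the total variance over the 96 arrays, 80.4% lay between regions for Gfap, 76.3% for Fgfr3 and 69.7% for Aldh1l1, against 42.9% for Aqp4, 42.2% for Slc1a2, 39.8% for Slc1a3, 16.6% for Glul, 2.37% for Mlc1, 1.47% for Aldoc and 0.0378% for S100b.

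Aldh1l1 and Fgfr3 showed the same order. The folate enzyme gene Aldh1l1 (1368378_at) ran from 9.31 through 9.65 to 10.22 in CeA water arrays and from 8.73 through 9.08 to 9.29 in NAc shell water arrays. No water array of one region reached the other, and the difference was 0.63 ± 0.07 (limma adjusted p = 3.33e-14). The receptor gene Fgfr3 (1384056_at) ran from 12.23 through 12.38 to 12.77 in CeA water arrays and from 11.50 through 11.85 to 12.15 in NAc shell water arrays. These water arrays did not overlap either, with a difference of 0.62 ± 0.06 (limma adjusted p = 2.00e-15). In ethanol rats the differences were 0.61 ± 0.05 for Aldh1l1 and 0.63 ± 0.05 for Fgfr3. There the regions overlapped, with Aldh1l1 from 9.42 to 10.25 in CeA ethanol arrays and from 8.70 to 9.59 in NAc shell ethanol arrays, and Fgfr3 from 12.09 to 12.80 in CeA ethanol arrays and from 11.24 to 12.16 in those of the NAc shell. The second Fgfr3 probe set, 1369373_at, lay below the limit in both regions and is not interpreted.

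All 3 probe sets of the water channel gene Aqp4 were higher in the CeA of water rats, by very different amounts. The lead, 1372190_at, was higher by 0.50 ± 0.09 (limma adjusted p = 2.73e-07), with 12.62 to 13.62 in CeA water arrays and 12.17 to 12.96 in NAc shell water arrays, which overlapped. Probe set 1387397_at was higher by 0.64 ± 0.11 (limma adjusted p = 1.29e-07). Probe set 1368981_at was higher by 2.19 ± 0.12 (limma adjusted p = 1.47e-29), with 7.74 to 9.65 in CeA water arrays and 6.39 to 7.46 in NAc shell water arrays. Its NAc shell mean of 6.84 lay under the test limit of that region, so it entered the comparison through the CeA alone, where it is high, and its difference and adjusted p do not support the other 2.

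The 2 transporter genes ran the other way. Slc1a2 (1369693_a_at) ran from 6.86 through 7.40 to 7.82 in CeA water arrays and from 7.56 through 7.83 to 8.32 in NAc shell water arrays. These overlapped in part, and the difference was -0.42 ± 0.09 (limma adjusted p = 1.43e-05). The signal was low, with a mean of 7.47 in the CeA, above 46.5% of probe sets, and 7.90 in the NAc shell, above 51.1%. Lower quartiles of the arrays were also higher in the NAc shell, and their part in this difference was not tested. The second Slc1a2 probe set, 1369694_at, differed by -0.84 ± 0.06 (limma adjusted p = 3.49e-25), with 6.55 to 7.04 in CeA water arrays and 7.28 to 8.06 in NAc shell water arrays. Its CeA mean of 6.82 failed the limit there, so it entered through the NAc shell alone, where it is high, and does not support the direction of the lead. Slc1a3 (1368565_at) averaged 13.86 ± 0.13 in CeA water arrays, from 13.66 to 14.15, and 14.04 ± 0.16 in NAc shell water arrays, from 13.77 to 14.44, a difference of -0.18 ± 0.05 (limma adjusted p = 0.00128) with wide overlap. Of its other probe sets, 1371130_at differed by -0.47 ± 0.10 and passed, while 1388064_a_at differed by -0.07 ± 0.21 and did not.

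Glul, next to the transporters in the glutamate cycle, had probe sets that disagreed. The lead 1367632_at was 0.14 ± 0.05 higher in the CeA of water rats (limma adjusted p = 0.0164), 1386870_at differed by 0.12 ± 0.11 without passing (adjusted p = 0.298), and 1367633_at was lower by -0.52 ± 0.14 (adjusted p = 0.000417). In ethanol rats the 3 differences were 0.14 ± 0.04, -0.08 ± 0.08 and -0.68 ± 0.10. No direction for Glul as a gene can be read from them.

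The remaining genes differed little. Aldoc was 0.19 ± 0.08 higher in the CeA of water rats (limma adjusted p = 0.0197), with 12.71 to 13.58 in CeA water arrays and 12.58 to 13.23 in NAc shell water arrays. In ethanol rats its difference was -0.01 ± 0.06. Mlc1 differed by 0.14 ± 0.07 (limma adjusted p = 0.0685) and S100b by 0.09 ± 0.06 (adjusted p = 0.167) in water rats, and neither passed. Without the 8 CeA arrays of run 4, the Mlc1 difference was 0.05 ± 0.06, and with the runs as a block it was 0.17 ± 0.06 and passed (adjusted p = 0.0117).

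In ethanol rats, the same comparison passed for 12 of 17 member probe sets, 7 higher and 5 lower, against 82.8% of all tested probe sets. The same 17 probe sets had their signs kept except Aldoc, S100b, Glul 1386870_at and Slc1a3 1388064_a_at. Water arrays of the regions did not overlap for 5 of the 17 member probe sets, against 17.8% of all tested probe sets, and over all 96 arrays for 2 of the 17, against 8.4%. Both of those 2, Aqp4 1368981_at and Slc1a2 1369694_at, are the ones that entered through 1 region. Among the 15 member probe sets tested in both regions, the water arrays did not overlap for 3, Gfap, Aldh1l1 and Fgfr3 1384056_at, against 14.1% of all such probe sets, and over all 96 arrays for 0, against 5.59%. Region and any difference in how the arrays of each region were processed cannot be told apart. The lower quartiles and the Gapdh signal ratio differed with region too. Over the alternative settings, which include joint quantile normalization and ethanol rats in place of water rats, the Gfap difference ran from 1.93 to 2.31. That of the Slc1a2 lead ran from -0.44 to -0.34. The part of the Gapdh ratio in the differences between regions was not tested.

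**Figure D2:**
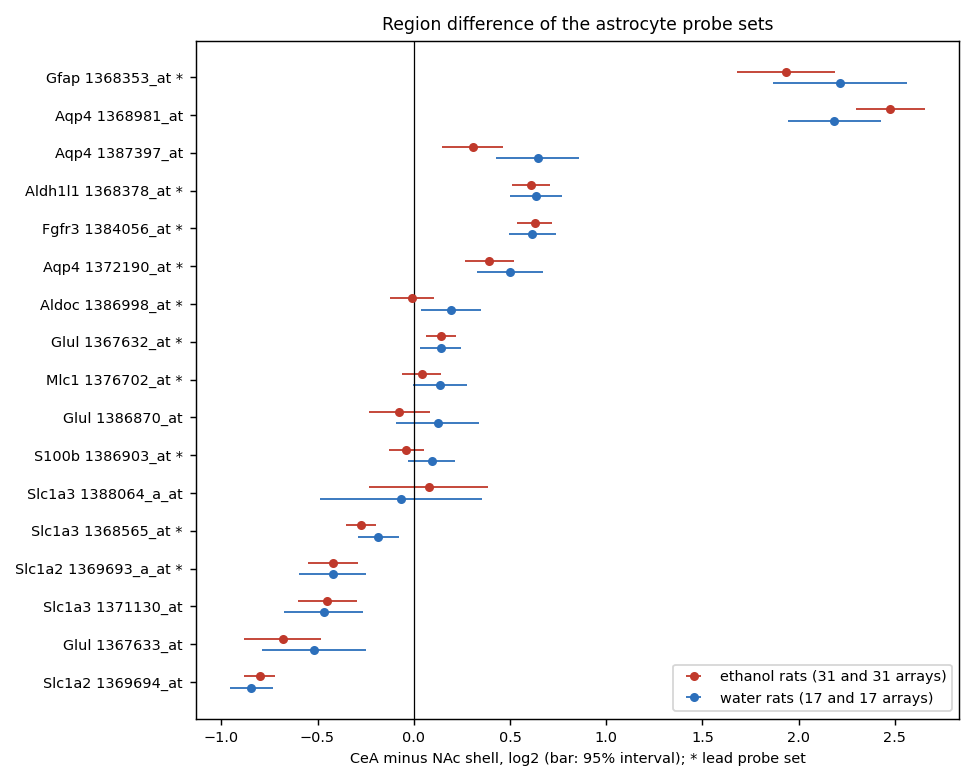
CeA minus NAc shell difference (log2, horizontal axis) with 95% interval for 17 member probe sets, in ethanol rats (red) and water rats (blue). Gfap and Aqp4 1368981_at lie near 2, Aldh1l1 and Fgfr3 near 0.6, and both Slc1a2 probe sets lie left of 0 in either treatment.

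Other astrocyte genes and other cell types also differed by region. Of 21 tested genes in a list of further astrocyte-enriched genes, 14 were higher and 4 lower in the CeA of water rats, with a median of 0.31. These and the following counts stand against the 36.6% higher and 39.6% lower of all tested probe sets, and the genes named are among the up to 4 of each list with the largest differences that passed. Gjb6, the connexin of astrocyte gap junctions, was higher by 1.74 ± 0.12, Agt, the precursor of angiotensin, by 1.21 ± 0.22, and Clu, a secreted chaperone, by 0.52 ± 0.09 (limma adjusted p = 8.16e-25, 7.52e-07 and 9.06e-08). Of 6 tested endfoot genes, 4 were higher and 2 lower, with Dag1, the dystroglycan gene, at 0.49 ± 0.04 and Hepacam, a partner of Mlc1 at astrocyte contacts, at -0.28 ± 0.10. Among 12 partners of the glutamate cycle, 4 were higher and 5 lower, and among 11 genes of the fibroblast growth factor pathway 6 were higher, with Fgfr2 at 0.99 ± 0.11, and 3 lower, with Spry1, an inhibitor of the pathway, at -0.68 ± 0.08. Markers of other cells differed as well: 10 of 11 oligodendrocyte markers were higher and 0 lower (median 0.81), as were 4 of 5 precursor markers, while 5 of 9 microglia markers were higher and 2 lower and 5 of 12 neuron markers were higher and 3 lower. Their part in the region differences of the astrocyte genes was not tested.

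No astrocyte gene passed the test between ethanol and water rats, in either region or at any of the 3 times. Averaged over the 3 times, 0 of 16 member probe sets passed for the CeA and 0 of 16 for the NAc shell by limma, where 0.0% of all 18625 tested probe sets passed in each region. An unadjusted p under 0.05 was held by 3 of 16 in the CeA and by 2 of 16 in the NAc shell, against 1519 and 2061 of all tested probe sets. Lead probe sets had differences above 0 for 4 of 10 genes in the CeA (median -0.01) and for 9 of 10 in the NAc shell (median 0.05), where 49.3% and 53.4% of all tested probe sets were above 0. Among the leads the 95% interval was widest for Gfap, from -0.35 to 0.25 for the CeA and from -0.08 to 0.54 for the NAc shell.

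Gfap, which rises in reactive astrocytes, is given in full. In the CeA it ran from 12.53 through a median of 13.53 to 14.04 in ethanol rats at 1 h, against 12.81 through 13.26 to 13.43 in water rats. At 6 h it ran from 12.34 through 13.06 to 14.39 in CeA ethanol rats, against 12.58, 13.51, 13.73, 13.83 and 13.84 in water rats. At 24 h it ran from 12.53 through 13.04 to 14.01 in CeA ethanol rats, against 12.83 through 13.40 to 13.62 in water rats. Ethanol and water arrays overlapped at each time, and the difference over the mean of the times was -0.05 ± 0.15 (limma adjusted p = 0.942). In the NAc shell the difference was 0.23 ± 0.15 (limma adjusted p = 0.583), with ethanol arrays from 10.36 through 11.26 to 12.62 and water arrays from 10.42 through 11.20 to 11.91. Of 31 NAc shell ethanol arrays, 19 exceeded the mean of the water rats of the same time.

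Aldoc had the smallest p among the members in the NAc shell. It ran from 12.88 through 13.12 to 13.57 in ethanol rats at 1 h, against 12.88 through 13.04 to 13.23 in water rats. At 6 h it ran from 12.89 through 13.12 to 13.51 in NAc shell ethanol rats, against 12.63, 12.81, 12.97, 13.09 and 13.13 in water rats. At 24 h it ran from 12.78 through 13.05 to 13.36 in NAc shell ethanol rats, against 12.58, 12.79, 12.82, 13.01 and 13.10 in water rats. The groups overlapped at each time, and 24 of 31 ethanol arrays exceeded the water mean at their time. The difference over the mean of the times was 0.19 ± 0.06 (unadjusted p = 0.00279 and adjusted p = 0.257 in limma), which did not pass. In the CeA it was -0.01 ± 0.07.

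Other glycolysis genes had like values in the NAc shell without passing either. Of 18 tested genes of glycolysis, lactate and glycogen, Aldoc among them, 17 were above 0 and 9 had an unadjusted p under 0.05, with a median of 0.13 against 0.01 over all tested probe sets, and 0 passed in limma. Eno1, the enolase, differed by 0.24 ± 0.07 (adjusted p = 0.222) and Pfkm, a phosphofructokinase, by 0.18 ± 0.06 (adjusted p = 0.245). In the CeA, 7 of 18 were above 0 and the median was -0.02. All 12 tested partners of the glutamate cycle were above 0 in the NAc shell (median 0.08), and 11 of 11 neuron markers were too (median 0.06), while 0 of either list passed. Over all tested probe sets, 53.4% were above 0 in the NAc shell and 49.3% in the CeA. An unadjusted p under 0.05 was held by 2061 of all 18625 in the NAc shell. Genes of a list were measured on the same arrays, so they are not separate observations.

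Mlc1 was the member with the smallest p at a single time. At 24 h it ran from 11.71 through 11.84 to 12.23 in NAc shell ethanol rats, against 11.38, 11.46, 11.64, 11.66 and 11.80 in water rats. Only the highest water array reached into the ethanol range, and the difference was 0.30 ± 0.09 (unadjusted p = 0.00265 and adjusted p = 0.999 in limma). At 1 h and 6 h the Mlc1 difference in the NAc shell was 0.04 ± 0.09 and 0.01 ± 0.10. Over the mean of the times it was 0.12 ± 0.05 (adjusted p = 0.409), with 23 of 31 ethanol arrays above the water mean at their time.

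**Figure D3:**
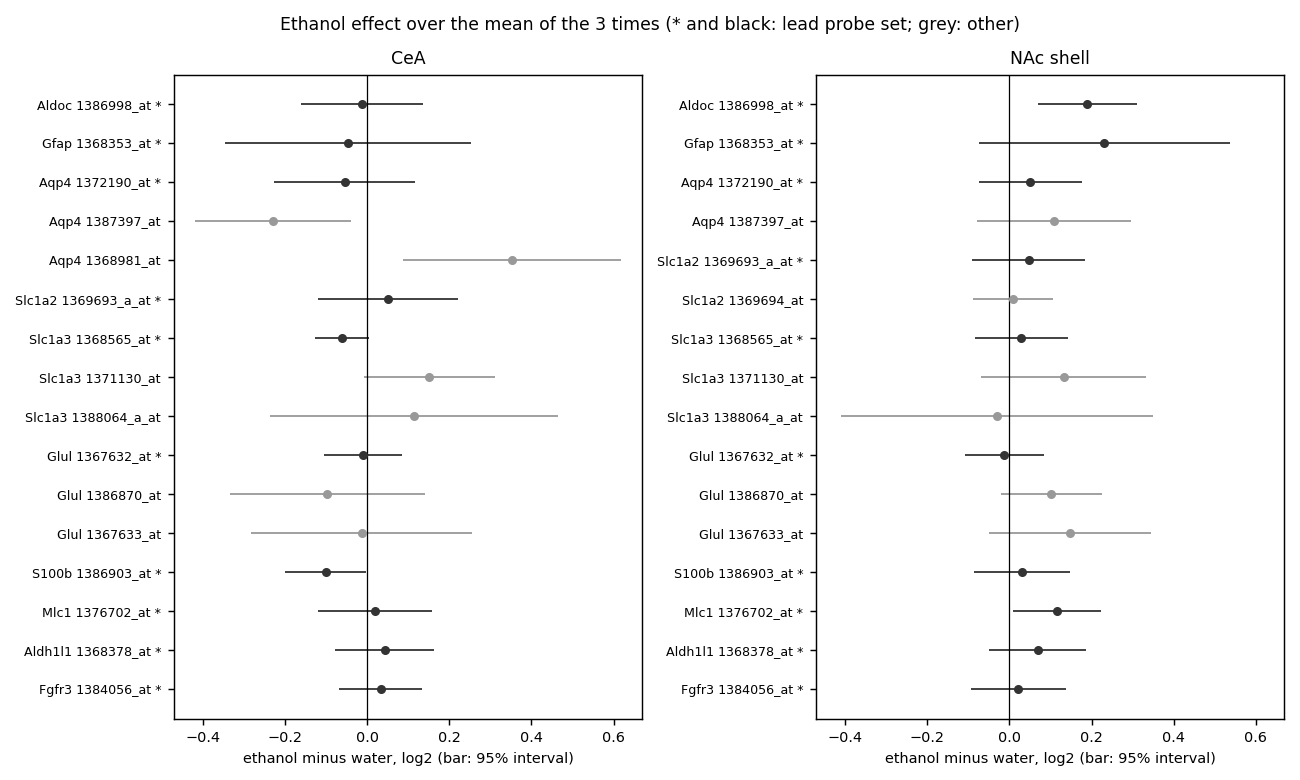
Ethanol minus water over the mean of the 3 times (log2, horizontal axis) with 95% interval for each tested member probe set, CeA on the left and NAc shell on the right, lead probe sets in black. No probe set passed, and the 2 grey Aqp4 probe sets of the CeA lie on opposite sides of 0.

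The 3 Aqp4 probe sets went different ways with ethanol in the CeA. Probe set 1368981_at ran from 8.86 through 9.63 to 9.87 in ethanol rats at 1 h, against 8.49 through 9.13 to 9.51 in water rats. At 6 h it ran from 8.60 through 9.31 to 10.21 in ethanol rats, against 8.35, 8.79, 8.92, 8.93 and 9.59 in water rats. At 24 h it ran from 8.55 through 9.10 to 9.96 in ethanol rats, against 7.74 through 9.09 to 9.65 in water rats. The groups overlapped at every time, with 25 of 31 ethanol arrays above the water mean at their time, and the difference was 0.35 ± 0.13 (unadjusted p = 0.0101, adjusted p = 0.508 in limma).

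Probe set 1387397_at, by contrast, ran from 8.67 through 8.97 to 9.72 in CeA ethanol rats at 1 h, against 8.83 through 9.03 to 9.33 in water rats. At 6 h it ran from 8.59 through 8.99 to 9.65 in ethanol rats, against 8.91, 9.17, 9.36, 9.60 and 10.09 in water rats. At 24 h it ran from 8.29 through 8.85 to 9.36 in ethanol rats, against 8.70 through 9.08 to 9.45 in water rats. Here 23 of 31 ethanol arrays were under the water mean at their time, and the difference was -0.23 ± 0.09 (unadjusted p = 0.0183, adjusted p = 0.547 in limma). The water array at 10.09 was among those that correlated poorly with their region.

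The brightest Aqp4 probe set, 1372190_at, differed by -0.05 ± 0.09 (adjusted p = 0.869) between ethanol and water rats in the CeA, so no direction for Aqp4 as a gene was measured. The array files name probe sets but not which transcript ends they cover, and RefSeq lists 2 starts for the gene. Across the 48 CeA arrays the group-centred values of 1372190_at had a Pearson r of 0.49 with 1368981_at and 0.35 with 1387397_at, given as a description of probe sets that share arrays. With the 4 runs as a block the CeA differences were 0.37 ± 0.11 for 1368981_at (adjusted p = 0.106) and -0.26 ± 0.08 for 1387397_at (adjusted p = 0.117). Within runs 1 to 4 taken singly, with the times pooled, ethanol minus water was 0.77, 0.30, 0.24 and 0.45 for 1368981_at and -0.23, -0.35, -0.02 and -0.61 for 1387397_at. In the fit with the runs as a block, 0 of 16 member probe sets and 0.258% of all tested probe sets passed.

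**Figure D4:**
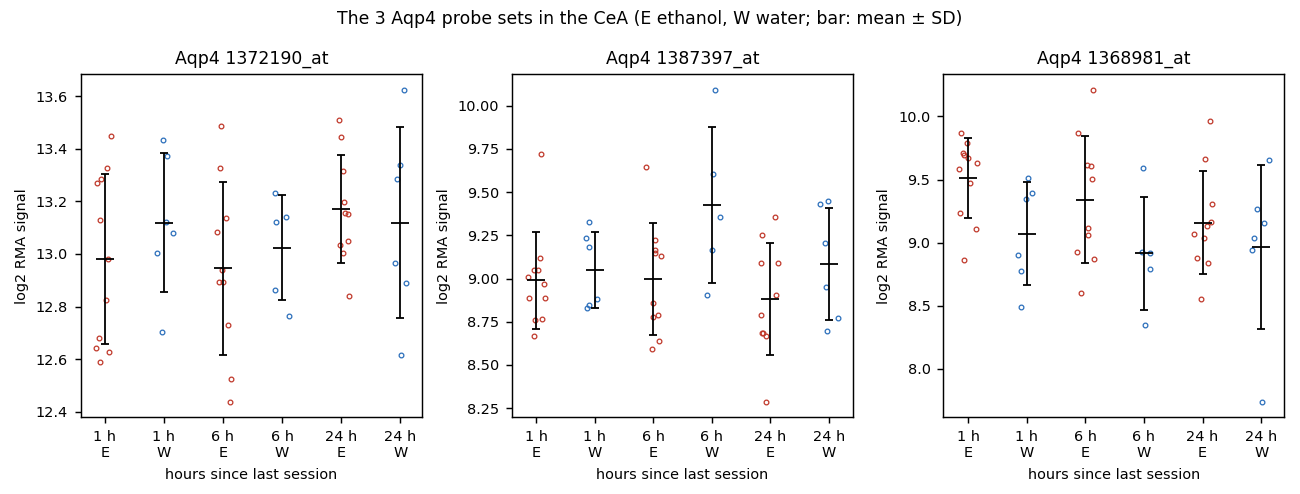
Log2 signal of the 3 Aqp4 probe sets in every CeA array (circles) with mean and SD, ethanol (E, red) beside water (W, blue) at 1, 6 and 24 h. Ethanol arrays of 1368981_at average above water arrays at all 3 times and those of 1387397_at below them, with overlap throughout.

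S100b had the smallest p among the leads in the CeA. It differed by -0.10 ± 0.05 (unadjusted p = 0.0454, adjusted p = 0.599 in limma), with 24 of 31 ethanol arrays below the water mean at their time. Its values ran from 13.14 through 13.36 to 13.78 in CeA ethanol arrays and from 13.19 through 13.49 to 13.84 in water arrays, which overlapped over most of their range. Slc1a3 differed by -0.06 ± 0.03 (adjusted p = 0.631), with 21 of 31 ethanol arrays below. Its other probe sets had the other sign, 0.15 ± 0.08 for 1371130_at (adjusted p = 0.624), with 20 of 31 ethanol arrays above, and 0.11 ± 0.17 for 1388064_a_at (adjusted p = 0.866). The leads of Aldh1l1, Fgfr3, Slc1a2, Mlc1 and Glul differed by -0.01 to 0.05 in the CeA, where the smallest adjusted p among them in limma was 0.853. The other Glul probe sets did not pass either. With the runs as a block they differed by -0.11 ± 0.08 for 1386870_at and -0.02 ± 0.10 for 1367633_at.

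By time, 0 of 16 member probe sets passed at 1, 6 or 24 h in either region, and 0.0% of all tested probe sets did. At 1, 6 and 24 h, 1, 2 and 0 member probe sets had an unadjusted p under 0.05 in the CeA, and 0, 0 and 2 had one in the NAc shell. The interaction of ethanol and time passed for 0 of 16 in either region (0.0% of all tested probe sets, and 0 of 16 at an unadjusted p under 0.05). Over all tested probe sets, 250 for the CeA and 161 for the NAc shell had an unadjusted interaction p under 0.05. Time itself passed for 0 of 16 in ethanol rats, against 0.0591% of all tested probe sets for the CeA and 0.0376% for the NAc shell. In water rats time passed for 0 of 16 in each region, against 0.0% of all, while 1 for the CeA and 3 for the NAc shell had an unadjusted p under 0.05. Of all 18625 tested probe sets, 618 for the CeA and 678 for the NAc shell had such a p. In the NAc shell at 24 h, all 16 member probe sets had a difference above 0, with a median of 0.06 over the 10 leads against 0.01 over all tested probe sets, 53.8% of which were above 0. The single times share their arrays with the mean over times, so these are not separate evidence.

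One water group stood out for its means. The CeA water rats at 6 h had the highest mean of the 12 groups for 7 of the 10 leads, Aldoc, Gfap, Glul, S100b, Mlc1, Aldh1l1 and Fgfr3, whereas 19.7% of probe sets tested in both regions had their highest mean there. That share includes probe sets that are lower in the CeA, while 8 of the 10 leads were above 0 for the CeA in water rats. The group was picked after its means were seen, and many leads vary together, so these 7 are not separate observations. This group had 5 arrays, 2 of them in run 4, and no other CeA water group had a run 4 array. Of those 2, 1 was among the CeA arrays that correlated poorly with their region, all of which lay in run 4. Mlc1 was 12.31 and 12.62 in the 2 run 4 arrays and as low as 11.51 in the other 3, against 11.39 through 11.75 to 11.88 in CeA water rats at 1 h. The Mlc1 difference between 6 h and 1 h in CeA water rats was 0.35 ± 0.14 (adjusted p = 0.789 in limma), 0.21 ± 0.12 with the runs as a block and 0.08 ± 0.11 without run 4.

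At 6 h, CeA ethanol minus water was above 0 for 1 of 10 leads, with a median of -0.06 against -0.02 over all tested probe sets, 46.1% of which were above 0. Markers of other cells had these values: 0 of 11 oligodendrocyte markers were above 0 (median -0.43), 0 of 9 microglia markers (median -0.16) and 0 of 9 endothelial markers (median -0.17), while 6 of 12 neuron markers were. No marker of these lists passed in limma, and 5 of them had an unadjusted p under 0.05, against 1531 of all 18625 tested probe sets. With the runs as a block the medians at 6 h were -0.05 for the leads and -0.28 for the oligodendrocyte markers. Their part in the members' values was not tested.

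The ethanol effects of the 2 regions did not differ by the test for any member. Of 17 probe sets, 0 passed and 2 had an unadjusted p under 0.05 in limma, against 0.00508% of all tested probe sets that passed. Over all 19678 tested probe sets, 1784 had an unadjusted p under 0.05. Aqp4 1387397_at had the smallest p, with an effect in the CeA that was -0.34 ± 0.13 relative to that in the NAc shell (unadjusted p = 0.0135, adjusted p = 0.465). For Aldoc the difference was -0.20 ± 0.10 (adjusted p = 0.524) and for Gfap -0.28 ± 0.22 (adjusted p = 0.698).

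The order of the 12 group means followed region for 7 of the 10 leads and for 10 of the 15 member probe sets tested in both regions, against 67.0% of all such probe sets. For the leads of Gfap, Aqp4, Glul, Aldh1l1 and Fgfr3 all 6 CeA groups lay above all 6 NAc shell groups, and for those of Slc1a2 and Slc1a3 all 6 lay below. Other probe sets of Glul differed, with all 6 CeA groups below for 1367633_at and only 1 above for 1386870_at. For Slc1a3 1388064_a_at 0 CeA groups lay above or below all NAc shell groups. Gfap ran from 13.50 ± 0.53 in CeA water rats at 6 h down to 13.21 ± 0.24 in CeA water rats at 1 h, then stepped to 11.40 ± 0.62 in NAc shell ethanol rats at 24 h and ended with NAc shell water rats at 6 h, whose 5 arrays ran from 10.61 to 11.35. For Gfap, Aldh1l1 and Fgfr3 this step between regions was the only one of 11 between neighbours larger than 1 SD, and for the other 7 leads no neighbours were apart by more. Aldoc, S100b and Mlc1 interleaved the regions, with all 12 group means within 0.46, 0.18 and 0.47.

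Spread differed between members. Within groups, Gfap had an SD of 0.51 for the CeA and 0.52 for the NAc shell, larger than that of 95.5% and 98.5% of tested probe sets. Slc1a3 1368565_at had an SD of 0.11 in the CeA, larger than that of 2.68% of tested probe sets, and 0.19 in the NAc shell. The medians over all tested probe sets were 0.22 and 0.19. Gfap differed between the runs of the CeA, where its group-centred mean was 0.54 in run 4 and -0.23 in run 3.

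Arrays with more of one astrocyte gene tended to have more of some others, but not of all. Over 45 pairs of leads in each region, using values centred on their group, the median Pearson r was 0.29 in the CeA (31 pairs above 0) and 0.18 in the NAc shell (34 above 0). The r between pairs of other tested probe sets was not computed, so whether these values are particular to the members is not known. With permutation p-values adjusted over 110 relations, which include 20 with the Gapdh ratio, 21 pairs above 0 and 8 below 0 passed in the CeA, and 16 above and 0 below in the NAc shell. The permutations exchanged arrays across the runs of the CeA, so these p-values also take in level differences between runs. Not every pair that passed kept its sign within each run. Aldoc and Slc1a3 had r = -0.35 in the CeA, but 0.40, -0.43, -0.35 and 0.45 within runs 1 to 4. The 2 farthest arrays, where left out, are those farthest from the median of 1 gene, the earlier of the pair in the member list. In relations with the Gapdh ratio they are the farthest for the gene, so arrays extreme in the ratio may remain. Gfap and Aldh1l1 varied together in both regions. In the CeA their r was 0.68 and Spearman's rho 0.64 (permutation p = 1e-05 each, the smallest that the 100000 permutations can give, adjusted 0.000137 and 0.000183, n = 48), with r = 0.64 without the 2 farthest arrays and 0.33, 0.75, 0.57 and 0.40 within runs 1 to 4. In the NAc shell r was 0.61 and rho 0.51 (permutation p = 2e-05 and 0.00017, adjusted 0.0002 and 0.000984, n = 48), and 0.48 without the 2 farthest arrays.

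In the NAc shell Slc1a3, S100b, Aqp4 and Fgfr3 varied together. Slc1a3 and S100b had r = 0.85 and rho = 0.83 (permutation p = 1e-05 each, adjusted 0.000137 and 0.000183, n = 48) and r = 0.77 without the 2 farthest arrays. Aqp4 and S100b had r = 0.71 and rho = 0.67 (permutation p = 1e-05 each, adjusted 0.000137 and 0.000183), with r = 0.62 without the 2 farthest. Fgfr3 had r = 0.64 with Slc1a3, 0.60 with S100b and 0.53 with Aqp4, and rho = 0.61, 0.61 and 0.49 (permutation p of r = 3e-05, 2e-05 and 0.00027, adjusted 0.000254, 0.0002 and 0.00135, n = 48), with r = 0.62, 0.58 and 0.42 without the 2 farthest. In the CeA all 8 pairs below 0 that passed held Slc1a2 or Slc1a3. Slc1a2 and S100b had r = -0.58 and rho = -0.61 (permutation p = 3e-05 and 2e-05, adjusted 0.000254 and 0.000244, n = 48), with 0.45, -0.53, -0.73 and -0.63 within runs 1 to 4 and -0.54 without the 2 farthest arrays.

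RNA quality moved with several of these genes. In the CeA the Gapdh 3 prime minus 5 prime signal had r = -0.56 and rho = -0.61 with Slc1a2, r = -0.55 and rho = -0.54 with Aqp4, r = -0.54 and rho = -0.58 with Aldoc, and r = -0.50 and rho = -0.49 with Glul (permutation p of r from 4e-05 to 0.00031, adjusted 0.000314 to 0.00147, n = 48). Within runs 1 to 4, r with Slc1a2 was -0.92, -0.30, -0.75 and -0.55, and r with Aqp4 was -0.61, 0.14, 0.42 and 0.06, while r with Aldoc was -0.83, -0.21, -0.05 and 0.13 and r with Glul was -0.35, -0.05, 0.06 and -0.81. The relations with Aqp4, Aldoc and Glul thus did not hold within all runs, and only that with Slc1a2 was below 0 by 0.30 or more in each. Without the 2 farthest arrays r was -0.52 with Slc1a2, -0.58 with Aqp4, -0.65 with Aldoc and -0.43 with Glul. Fgfr3 had r = 0.33 in the CeA (adjusted permutation p = 0.048) but its rho of 0.28 did not pass (adjusted permutation p = 0.101), with r of -0.27, -0.12, 0.20 and -0.27 within the runs. In the NAc shell the signal had r = 0.45 and rho = 0.44 with S100b (permutation adjusted p = 0.00394 and 0.00728), and r = 0.37 without the 2 farthest arrays. There r was also 0.43 with Fgfr3, -0.38 with Aldh1l1 and -0.37 with Slc1a2, with rho = 0.34, -0.46 and -0.39 (permutation p of r = 0.0024, 0.00689 and 0.00991, adjusted 0.00716, 0.018 and 0.0242), and 0.29, -0.47 and -0.35 without the 2 farthest arrays. No runs were defined among the NAc shell arrays, so r was not split there. Whether its arrays also differ in level along their title numbers was not tested. The part of RNA quality in the members' co-variation was not tested.

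**Figure D5:**
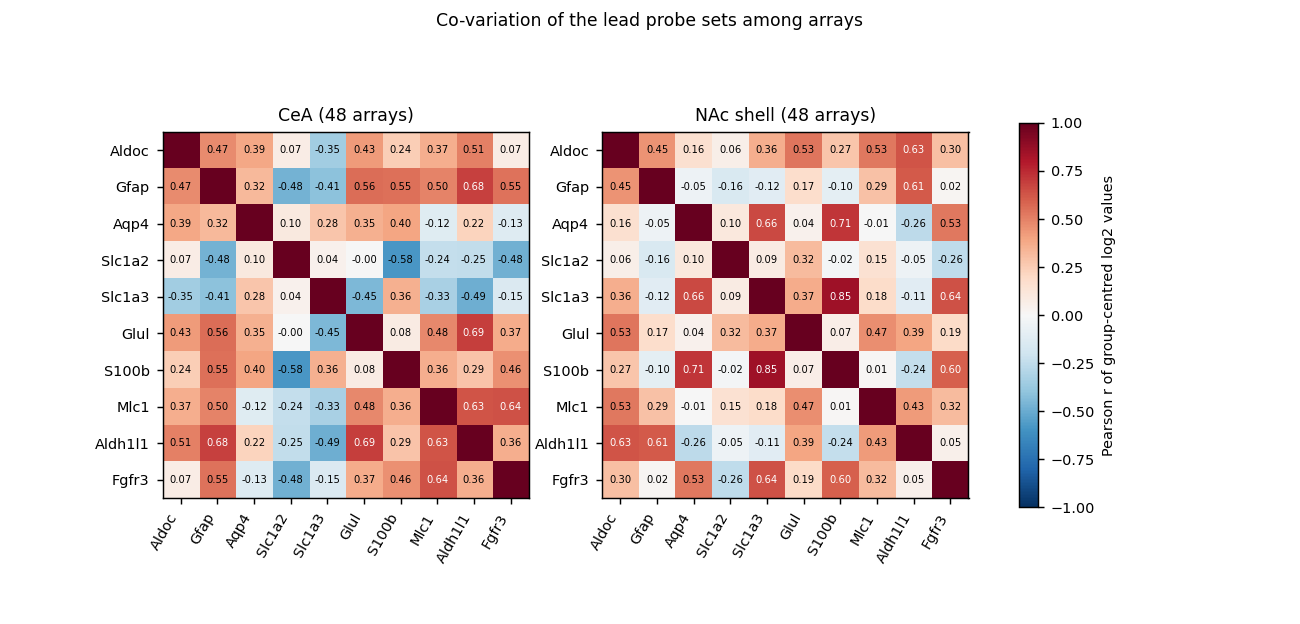
Pearson r between group-centred log2 values of each pair of lead probe sets over 48 arrays, CeA on the left and NAc shell on the right (red above 0, blue below 0). Gfap and Aldh1l1 pair in both regions, Slc1a3 and S100b reach 0.85 in the NAc shell, and Slc1a2 and Slc1a3 hold most of the values below 0 in the CeA.

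Among 12676 candidate genes outside the set, the one whose group-centred values were most like those of the 10 leads was Acsbg1, a glial acyl-CoA synthetase, with a mean r of 0.43 over members and regions (48 arrays each), followed by Selenot (0.41), St3gal4 (0.41), Tns3 (0.41) and Mbp (0.41), the myelin basic protein gene. Taken 1 member at a time, the nearest gene was Acsbg1 for Aldoc (mean r 0.84), Arhgap23 for Gfap (0.74), Vps35 for Aqp4 (0.79), Cyld for Slc1a2 (0.76) and Itm2b for Slc1a3 (0.85). It was Scd2 for Glul (0.83), Lactb2 for S100b (0.87), Psat1, an enzyme of serine synthesis, for Mlc1 (0.70), Rrbp1 for Aldh1l1 (0.78) and Adhfe1 for Fgfr3 (0.78). These are descriptions over arrays that share runs and RNA quality.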

How the data were processed

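RNA of 96 tissue samples was measured on Affymetrix rat arrays. Per the labels' protocols, extraction used Trizol and then an RNeasy kit, and 25 ng was labelled by the 2-cycle protocol. The deposited table holds log2 values that the authors made with RMA, per the submitters' processing notes. The RMA version, scan dates and any filter are not given in the sources used here. No detection calls were used, and array number limits precision.

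The 57 control probe sets were left out. All 96 columns matched a labelled array, with 0 identical pairs. Each region was fitted with limma 3.58.1 (R 4.3.3) on 6 group means with a variance trend, and both regions together for region comparisons. Adjustment was over 18625 probe sets per region and 19678 jointly. Title numbers run on across regions within a treatment (CeA ethanol 1 to 31, CeA water 1 to 17, NAc shell ethanol 32 to 62, NAc shell water 18 to 34), so no number links the regions of a rat. Ethanol and water share 17 numbers among CeA arrays, 3 of them at the same time, and 3 among NAc shell arrays, and no label says what a number marks, so the number block is an alternative (consensus correlation 0.07 for the CeA, and -0.29 for the NAc shell from those 3 numbers). Alternatives were the filter, joint normalization, array weights, the Gapdh covariate, blocks and leaving out arrays. Likeness is the mean r with a gene's lead. Listed genes named are up to 4 a list and comparison, those that passed or had the smallest p. Members and lists were chosen with earlier results of these data known.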

Additional observations from a re-analysis of the deposited data

Results flagged for a closer look

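In 100 checks of a lead probe set within a group, 7 values on 6 arrays lay far from the rest of their group by Dixon's criterion, where chance gives about 1 in 20. Gfap was 12.58 in 1 of 5 CeA water arrays at 6 h, with the next value at 13.51. Mlc1 was 11.39 in 1 of 6 CeA water arrays at 1 h (next 11.71). Slc1a3 was 14.15 in 1 of 6 CeA water arrays at 24 h (next 13.90). A single NAc shell water array at 24 h was the highest of 5 for both Slc1a3, at 14.44 (next 14.04), and S100b, at 13.95 (next 13.43). In NAc shell ethanol rats at 6 h, Aldh1l1 was 9.59 in 1 of 10 arrays (next 9.22) and Fgfr3 was 11.24 in another (next 11.74), both among the arrays that correlated poorly with their region.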

How the results depend on the processing

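The counts of member probe sets that passed stayed within 1.5 times of those reported in every alternative run: 0 in each ethanol, interaction and time comparison, and 13 for the region difference in water rats, also without run 4 (an alternative chosen after seeing the data) and with the title-number replicate block (13), 15 with the run block or array weights, 10 of 13 tested with the filter at the 60th percentile, and 12 in ethanol rats (also chosen after). Pairing of the 2 regions within a rat was not tested, because no title number occurs in both regions of a treatment. The replicate block changed no call, and gave 0 for both ethanol effects (smallest adjusted p among members 0.389 for the CeA and 0.348 for the NAc shell). Signs turned only for small differences that did not pass, apart from Aldoc. Under array weights, ethanol minus water in the CeA was -0.0538 for Slc1a3 1388064_a_at, -0.0131 for Mlc1 and -0.0161 for Aldh1l1, and Mlc1 was -0.00131 with the run block. In the NAc shell it was -0.000359 for Slc1a2 1369694_at with the Gapdh covariate, -0.0199 for Slc1a3 1368565_at and -0.000866 for S100b under joint normalization, and 0.0288 for Slc1a3 1388064_a_at without low-correlation arrays. CeA minus NAc shell for Slc1a3 1388064_a_at was 0.00199 under joint normalization, 0.0777 under array weights, 0.00856 without low-correlation arrays, 0.0612 without run 4 and 0.0772 in ethanol rats. In ethanol rats it was -0.00771 for Aldoc, -0.0753 for Glul 1386870_at and -0.0392 for S100b. Leaving out 1 array at a time turned signs within -0.0465 to 0.0189 (Aldoc), -0.0326 to 0.0115 (Glul 1367632_at), -0.0750 to 0.0450 (Glul 1367633_at) and -0.0268 to 0.0657 (Mlc1) for ethanol in the CeA, within -0.0159 to 0.0252 (Slc1a2 1369694_at) and -0.0885 to 0.0537 (Slc1a3 1388064_a_at) in the NAc shell, and within -0.156 to 0.0166 for the region difference of Slc1a3 1388064_a_at. The region difference of Mlc1 passed in 6 of these and ran from 0.0915 to 0.184. It also passed with the run block, as did Glul 1386870_at (0.194), which passed under array weights too (0.211). S100b passed under joint normalization (0.119), array weights (0.141) and without 1 NAc shell water array of 24 h (0.133), the one that was highest for S100b. The causes were not tested.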
